A study of Homo sapiens with 6 samples.

Results

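The EGFR family genes examined here are 10 genes picked by symbol: the receptors EGFR, ERBB2 and ERBB3, the ligands EREG, AREG, TGFA, HBEGF, BTC and EPGN, and the receptor inhibitor ERRFI1. All 10 were among the 60623 gene identifiers of the count table, and 9 had enough counts to be tested. They were followed in DU145, a human prostate carcinoma line in long use, labelled as wild type, in 3 libraries of cells given the solvent DMSO and 3 of cells given 1 µM CCS1477 for 24 h. CCS1477 (inobrodib) is an inhibitor aimed at the bromodomains of p300 and CBP, acetyltransferases that act as transcriptional coactivators, and the question was which transcripts change with it. Both groups were grown in the same medium with serum. Whether the libraries of a group came from separate cultures is not stated in the labels. The p-values therefore reflect the spread among these 6 libraries alone, and that spread could be technical.

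The ERBB receptors are tyrosine kinases of the cell surface that pair up when a ligand binds and pass the signal to the RAS-ERK and PI3K-AKT pathways. ERBB2 binds no known ligand of its own and works as a partner, and ERBB3 has a weak kinase and serves mainly as a docking site for PI3K. The ligands are made as membrane-bound precursors that proteases cut free, so that an epithelial tumour cell can stimulate itself. ERRFI1 (MIG6) binds the kinase domain of active ERBB receptors and blocks it, and is itself induced by receptor signalling.

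Library totals ran from 8286880 to 11956734 counts, highest in DMSO 1 and DMSO 2. Levels within a gene are given as CPM, counts scaled to a common library total and by TMM factors, and levels between genes as the deposited TPM, which also divides by length. The labelled tissue is prostate. The 5 epithelial markers EPCAM, KRT8, KRT18, KRT19 and CDH1 were all expressed, with CDH1 (log2 fold change -1.17, edgeR adjusted p = 1.64e-05) and KRT19 (-0.34, edgeR adjusted p = 0.021) lower in CCS1477 and the other 3 between -0.19 and -0.04 without passing. The part of these shifts in the members' results was not tested. Of the prostate luminal markers, 5 of 7, among them KLK3, had 0 counts in every library. Of markers of other cell types, PTPRC, CD3E, PECAM1, DCN, LUM and COL3A1 had 0 counts in every library. The summed TPM of the 4 endothelial markers was at most 0.54, that of the 6 fibroblast markers ran from 5.81 to 11.15 in DMSO and 4.34 to 5.5 in CCS1477, almost all from COL1A1, and that of the 6 leukocyte markers ran from 37.44 to 67.24 in DMSO and 31.21 to 38.52 in CCS1477, almost all from CD68, a lysosomal protein that was also lower (log2 fold change -0.56, edgeR adjusted p = 0.0071).

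The 3 members with the largest falls were EREG, AREG and ERRFI1. The bases just upstream of their RefSeq transcription starts (GRCh38.p14) are shown because these genes moved together and by the most, with capitals marking the letters of the motifs searched. The EREG window lies at chr4:74364895-74365144 (plus strand), the AREG window at chr4:74444886-74445135 (plus strand) and the ERRFI1 window at chr1:8026310-8026559 (minus strand). Each window holds 250 bases that end just before the start.
EREG: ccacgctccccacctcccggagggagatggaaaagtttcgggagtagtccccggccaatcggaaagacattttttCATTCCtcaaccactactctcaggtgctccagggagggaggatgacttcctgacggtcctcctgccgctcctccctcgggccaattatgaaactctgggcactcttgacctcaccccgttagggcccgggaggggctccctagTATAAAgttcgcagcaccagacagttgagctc
AREG: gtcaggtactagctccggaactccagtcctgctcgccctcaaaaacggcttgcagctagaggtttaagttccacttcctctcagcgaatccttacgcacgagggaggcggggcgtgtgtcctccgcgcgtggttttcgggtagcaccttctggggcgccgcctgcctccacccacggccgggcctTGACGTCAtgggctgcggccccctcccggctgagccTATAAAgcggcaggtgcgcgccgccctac
ERRFI1: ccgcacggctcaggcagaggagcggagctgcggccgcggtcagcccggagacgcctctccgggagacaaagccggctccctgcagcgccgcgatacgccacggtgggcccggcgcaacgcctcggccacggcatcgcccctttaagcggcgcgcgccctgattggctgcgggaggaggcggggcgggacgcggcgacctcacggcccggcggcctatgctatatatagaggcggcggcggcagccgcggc

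On both strands of these windows, 4 motifs were searched as exact letters, so variant forms were not counted. They were TATAAA (a form of the TATA box), TGACGTCA (the cyclic AMP response element), TGACTCA (the AP-1 site) and GGAATG (the TEAD site). The cyclic AMP response element is bound by CREB, the protein after which CBP is named. No matches overlapped each other in the members' windows, and each match is a description of letters only. EREG and AREG each held TATAAA, with 27 and 24 bases from the end of the match to the start. Over all 35116 RefSeq windows of this length, 10.7% held it. AREG also held TGACGTCA (1.65% of all windows), and EREG held CATTCC, which is GGAATG on the other strand (11.9% of all windows). The ERRFI1 window held none of the 4 in these exact letters, though the letters tatatata lie near its end. Its GC content was 75.2% against 58.0% in EREG and 65.2% in AREG. Windows were found for 9 of the 10 members. ERBB3 had none. At the first listed start of the others, EPGN held TATAAA and EGFR, ERBB2, TGFA, HBEGF and BTC held none of the 4. TGACTCA, found in 4.2% of all windows, occurred in no member at the first listed start. EGFR and TGFA had a second listed start. The second EGFR window held the AP-1 motif at 2 places, TATAAA at 2 and the TEAD motif at 1, and that of TGFA held none of the 4.

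Most of the family's transcripts were lower with CCS1477, and none was called higher. In edgeR's quasi-likelihood fit, with p-values adjusted by Benjamini-Hochberg over all 14928 tested genes, EGFR, ERBB3, EREG, AREG, BTC and ERRFI1 were lower at an adjusted p under 0.05, while ERBB2, TGFA and HBEGF did not pass. That is 6 of 9 tested members lower and 0 higher, where 10.7% of all tested genes were lower and 7.23% higher. The count was 3 without CCS1477 2 and 3 on both TPM scales, where EREG, AREG and ERRFI1 passed. The median log2 fold change was -0.41 over the 9 tested members and -0.003 over all tested genes. The CPM of the groups did not overlap and were lower with CCS1477 for 6 members (19.3% of all tested genes). These were ERBB3, EREG, AREG, TGFA, BTC and ERRFI1, which includes TGFA, not called, and leaves out EGFR, called lower but overlapping. For ERBB2 the groups did not overlap and were higher (16.6% of all tested genes). Testing had to pass a minimum count, which left out EPGN. In bulk RNA, fewer expressing cells and less RNA per cell cannot be told apart.

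**Figure D1:**
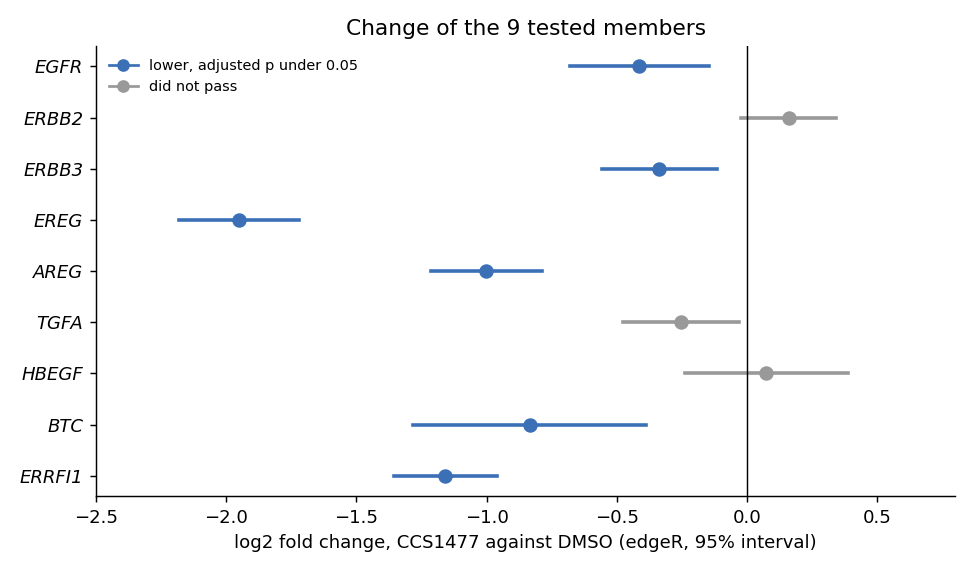
Log2 fold change of CCS1477 against DMSO (x axis) for each of the 9 tested members (y axis), with 3 libraries per group. Points are edgeR estimates and lines their 95% intervals, blue where the adjusted p was under 0.05; EREG stands furthest to the left at -1.95, and ERBB2 and HBEGF lie above 0 without passing.

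Among the ligands, epiregulin (EREG), which binds EGFR and ERBB4, changed the most. EREG stood at 252.9, 272.1 and 245.9 CPM in DMSO 1, 2 and 3 and at 74.8, 66.9 and 57.9 CPM in CCS1477 1, 2 and 3. Every CCS1477 library was far below every DMSO library, and the groups did not come near each other. The mean went from 257.0 ± 13.6 to 66.5 ± 8.44 CPM (SD, n = 3), 3.86-fold lower, with a log2 fold change of -1.95 ± 0.11 (SE, 95% interval -2.18 to -1.72, edgeR adjusted p = 7.43e-07). Among the 1597 genes called lower, EREG ranked 127 by fold.

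Amphiregulin (AREG), an EGFR ligand that is the most abundant of the family here, fell by less than EREG. AREG stood at 237.6, 209.0 and 258.2 CPM in DMSO and at 114.3, 113.5 and 124.3 CPM in CCS1477, in the order of the replicate numbers. The CCS1477 libraries lay close together and all below the lowest DMSO library. AREG was 2.00-fold lower, with a log2 fold change of -1.001 ± 0.10 (SE, edgeR adjusted p = 4.39e-05). Its 95% interval, -1.21 to -0.79, did not overlap that of EREG. The ratio of AREG to EREG in TPM was 4.20, 3.40 and 4.65 in the DMSO libraries and 6.88, 7.51 and 9.21 in the CCS1477 libraries, so AREG outweighed EREG by more in each treated library.

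Betacellulin (BTC), a ligand of EGFR and ERBB4, was scarce and lower. BTC had 119, 138 and 88 counts in DMSO and 58, 45 and 63 in CCS1477, or 10.1, 11.8 and 10.8 CPM against 6.49, 4.68 and 7.18 CPM. On CPM the groups did not overlap, and the log2 fold change was -0.84 ± 0.21 (SE, edgeR adjusted p = 0.0155). On deposited TPM they did overlap: CCS1477 1 stood at 7.22 TPM, within the DMSO values of 7.9, 7.25 and 6.51, and CCS1477 2 and 3 at 4.8 and 4.88. Counts per TPM, which follow the transcript length used in quantification and are set here to 1 for the median gene, were 0.839, 1.08 and 0.961 for BTC in DMSO and 0.602, 0.643 and 0.959 in CCS1477. The call ended on both TPM scales (log2 difference -0.33 and -0.37 with pseudocounts of 1 and 0.1) and without CCS1477 2 (log2 fold change -0.67, edgeR adjusted p = 0.0738).

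The ligands TGFA and HBEGF did not pass. TGFA (chr2:70447284-70554193), transforming growth factor alpha, which binds EGFR, stood at 68.9, 79.4 and 70.9 CPM in DMSO and 61.8, 65.4 and 56.7 CPM in CCS1477. The groups lay side by side without overlap, and the log2 fold change was -0.25 ± 0.10 (SE, 95% interval -0.48 to -0.03, edgeR adjusted p = 0.107). HBEGF (chr5:140332843-140346603), which binds EGFR and ERBB4 and also heparan sulphate, stood at 21.9, 16.6 and 18.6 CPM in DMSO and 19.0, 21.4 and 19.7 CPM in CCS1477, with the groups interleaved. Its log2 fold change of 0.07 had a 95% interval from -0.24 to 0.39, which does not hold a change of the size seen for AREG or EREG (edgeR adjusted p = 0.772). EPGN (epigen, an EGFR ligand) had 1 count in DMSO 2, 1 in CCS1477 2 and 0 in the other libraries. Each was below the floor of 3 counts, so no change was detectable at this depth. By library total, without TMM factors, this floor was 0.251 to 0.362 CPM (counting error only).

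**Figure D2:**
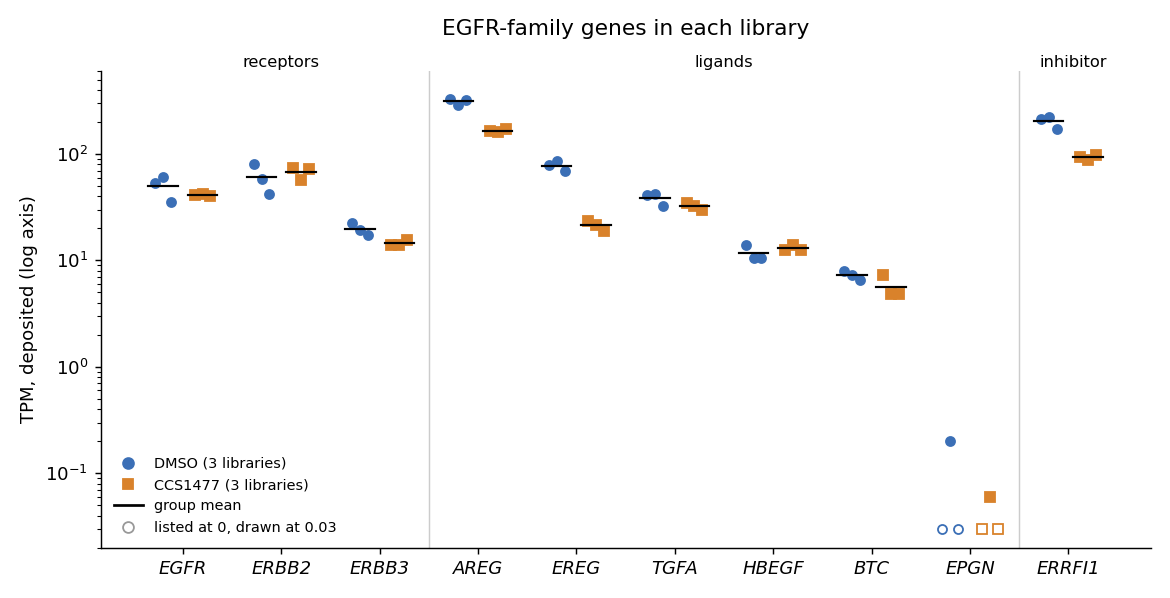
Deposited TPM of each member (log axis) in each library, with DMSO as blue circles, CCS1477 as orange squares and group means as black bars (none drawn for EPGN); open symbols mark libraries listed at 0. The orange squares lie clearly below the blue circles for AREG, EREG and ERRFI1. The ranges of the groups overlap for EGFR, ERBB2, TGFA, HBEGF and BTC.

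Summed over the 6 ligands, TPM was 471.3, 435.1 and 438.5 in the DMSO libraries and 241.5, 234.0 and 238.0 in the CCS1477 libraries, a mean of 448.3 ± 19.996 against 237.8 ± 3.74 (SD, n = 3). AREG made up most of this sum in every library, with 69.8% ± 3.19 in DMSO and 69.6% ± 2.497 in CCS1477 (SD, n = 3), and its share overlapped between the groups. The share of EREG was 16.6%, 19.6% and 15.7% in DMSO and 9.82%, 9.18% and 7.86% in CCS1477. The share of TGFA, whose own level moved little, was 8.81%, 9.69% and 7.46% in DMSO and 14.5%, 13.8% and 12.4% in CCS1477, so TGFA exceeded EREG in each treated library and was below it in each control library. HBEGF had a share of 2.61% ± 0.300 in DMSO and 5.46% ± 0.465 in CCS1477 (SD, n = 3). These shares are parts of one sum, so a fall in one raises the others.

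**Figure D3:**
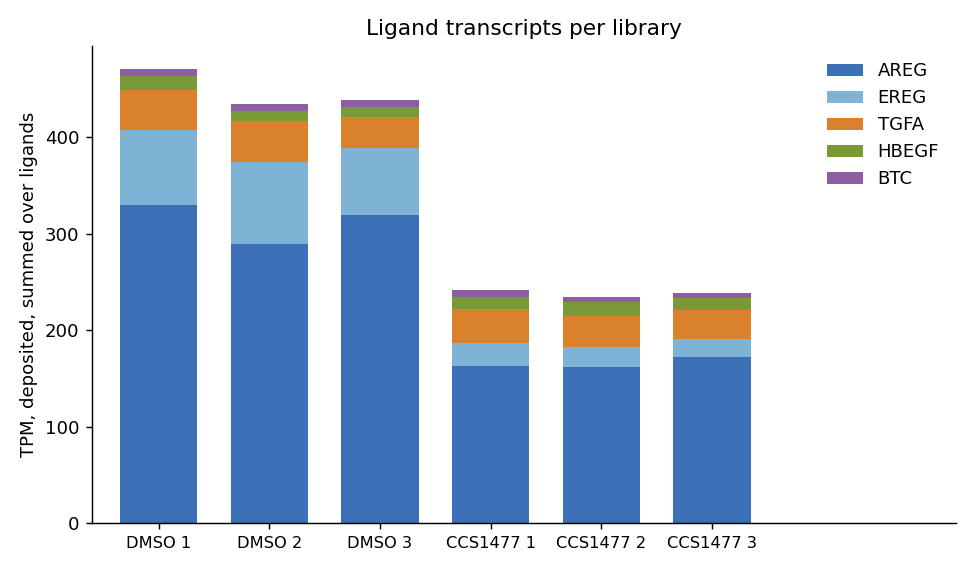
Deposited TPM (y axis) of 5 ligands stacked for each of the 6 libraries, with EPGN left out because its highest value was 0.2 TPM. Bars reach 435.1 to 471.3 TPM in DMSO and 234.0 to 241.5 TPM in CCS1477, and the AREG and EREG segments are shorter in each CCS1477 bar than in any DMSO bar.

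The receptors differed by less than EREG and AREG, and their 95% intervals did not reach those of these ligands. EGFR (chr7:55019017-55211628 in the files' coordinates), which binds all 6 ligands listed here, stood at 364.1, 390.7 and 275.4 CPM in DMSO and 280.1, 240.0 and 254.1 CPM in CCS1477. DMSO 3 lay far below DMSO 1 and 2 and below CCS1477 1, so the groups overlapped. The log2 fold change was -0.41 ± 0.12 (SE, 95% interval -0.68 to -0.15, edgeR adjusted p = 0.0366). The call rested on single libraries: edgeR gave an adjusted p of 0.157 without DMSO 1, 0.103 without DMSO 2, 0.0576 without CCS1477 1, 0.155 without CCS1477 2 and 0.126 without CCS1477 3, with log2 fold changes of -0.37, -0.30, -0.47, -0.36 and -0.40. Without DMSO 3 EGFR stood at -0.55 with an edgeR adjusted p of 0.000417. Scaling by library size gave an edgeR adjusted p of 0.0555, and both TPM scales gave -0.25 without passing. DMSO 1 and 2 were also the deepest libraries, and the part of depth in this result was not tested.

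ERBB3 (chr12:56076799-56103505), a neuregulin receptor, stood at 51.4, 47.9 and 49.7 CPM in DMSO and 37.4, 40.6 and 39.9 CPM in CCS1477. The replicates of each group lay close together and the groups did not overlap on CPM or TPM, although the difference was small. The log2 fold change was -0.34 ± 0.10 (SE, edgeR adjusted p = 0.0386). ERBB3 kept its direction in all 17 alternatives but did not pass in 13 of them: without any 1 library other than DMSO 3 the edgeR adjusted p ran from 0.0531 to 0.145 and the log2 fold change from -0.36 to -0.30, and DESeq2 gave an adjusted p of 0.0583. An overlapping gene without a symbol on the same strand had 221 counts over all libraries against 2646 for ERBB3. These were uneven, with 130 of the 221 in a single library, and their part in the ERBB3 result was not tested.

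ERBB2, the partner receptor without a ligand, did not pass. ERBB2 (chr17:39687914-39730426) stood at 149.7, 141.5 and 135.3 CPM in DMSO and at 153.6, 160.6 and 162.5 CPM in CCS1477. All 3 CCS1477 libraries were above all DMSO libraries by a narrow margin, with a log2 fold change of 0.16 ± 0.08 (SE, 95% interval -0.02 to 0.34, edgeR adjusted p = 0.216). On TPM the groups overlapped, with 80.84, 58.09 and 42.04 in DMSO and 74.69, 57.4 and 73.0 in CCS1477. The neighbours MIEN1 and PGAP3 overlap ERBB2 on the other strand, with 1620 and 812 counts over all libraries against 8866 for ERBB2, and the strandedness of the counting is not given in the sources used here.

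ERRFI1, the feedback inhibitor, was lower as well. ERRFI1 (chr1:8004404-8026309, minus strand) stood at 407.1, 424.0 and 372.0 CPM in DMSO and 181.0, 166.4 and 191.7 CPM in CCS1477. The lowest DMSO library was well above the highest CCS1477 library. It was 2.23-fold lower, with a log2 fold change of -1.16 ± 0.09 (SE, 95% interval -1.36 to -0.96, edgeR adjusted p = 9.44e-06). The ratio of EGFR to its inhibitor ERRFI1 in TPM was 0.251, 0.275 and 0.207 in DMSO and 0.441, 0.473 and 0.415 in CCS1477, higher in each treated library. EREG, AREG and ERRFI1 stayed lower and past the threshold in all 17 alternatives, including those without any 1 library.

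On the TPM scale, which allows genes to be ranked, the DMSO means ran AREG 313.0, ERRFI1 203.0, EREG 77.5, ERBB2 60.3, EGFR 50.2, TGFA 38.8, ERBB3 19.6, HBEGF 11.7 and BTC 7.22. The ranges of AREG, ERRFI1 and EREG were separate from each other, those of EREG and ERBB2, of ERBB2 and EGFR and of EGFR and TGFA overlapped, and those below TGFA were separate. With CCS1477 the order was AREG 165.6, ERRFI1 93.0, ERBB2 68.4, EGFR 41.1, TGFA 32.3, EREG 21.3, ERBB3 14.5, HBEGF 12.98 and BTC 5.63, where only ERBB3 and HBEGF overlapped among neighbours. By group mean, EREG thus moved from above the receptors and TGFA to below ERBB2, EGFR and TGFA. In DMSO 1, however, ERBB2 (80.84 TPM) was above EREG (78.45 TPM).

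Of the 6 ligands, 4 lie side by side on chromosome 4. In the files' coordinates EPGN, EREG and AREG lie on the plus strand, with 48.4 kb between EPGN and EREG and 56.4 kb between EREG and AREG, and BTC follows on the minus strand 289.8 kb beyond AREG. EPGN spans 74308470 to 74316789, EREG 74365145 to 74388749, AREG 74445136 to 74455005 and BTC 74744759 to 74794523. All of the 3 tested ligands at this locus fell. The tested member ligands elsewhere, TGFA on chromosome 2 and HBEGF on chromosome 5, did not pass. The difference between these sets was not tested. Among ligands that are not members, EGF, farther along chromosome 4, was also lower (log2 fold change -0.85, edgeR adjusted p = 0.0498). That call ended without any 1 library. NRG1, NRG2 and NRG4 did not pass. A window reaching 500 kb beyond these genes on each side held 10 tested genes, of which 4 were lower and 0 higher, and 3 of the 4 are the ligands already named. Of the 7 that are not members 1 was lower, where 10.7% of all tested genes were. That gene, CXCL2, which encodes a neutrophil-attracting chemokine, stood at 42.97, 33.28 and 53.52 CPM in DMSO against 15, 11.95 and 13.34 CPM in CCS1477, with a log2 fold change of -1.68 ± 0.18 (SE, edgeR adjusted p = 7.66e-05). The gene next to EPGN, MTHFD2L (a mitochondrial folate enzyme), stood at -0.31 ± 0.21 (SE, edgeR adjusted p = 0.353) and PARM1, beyond BTC, at 0.26 ± 0.16 (SE, edgeR adjusted p = 0.303). The chemokine genes CXCL1, CXCL3, CXCL5 and CXCL6 had log2 fold changes between -0.39 and 0.32 and did not pass.

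**Figure D4:**
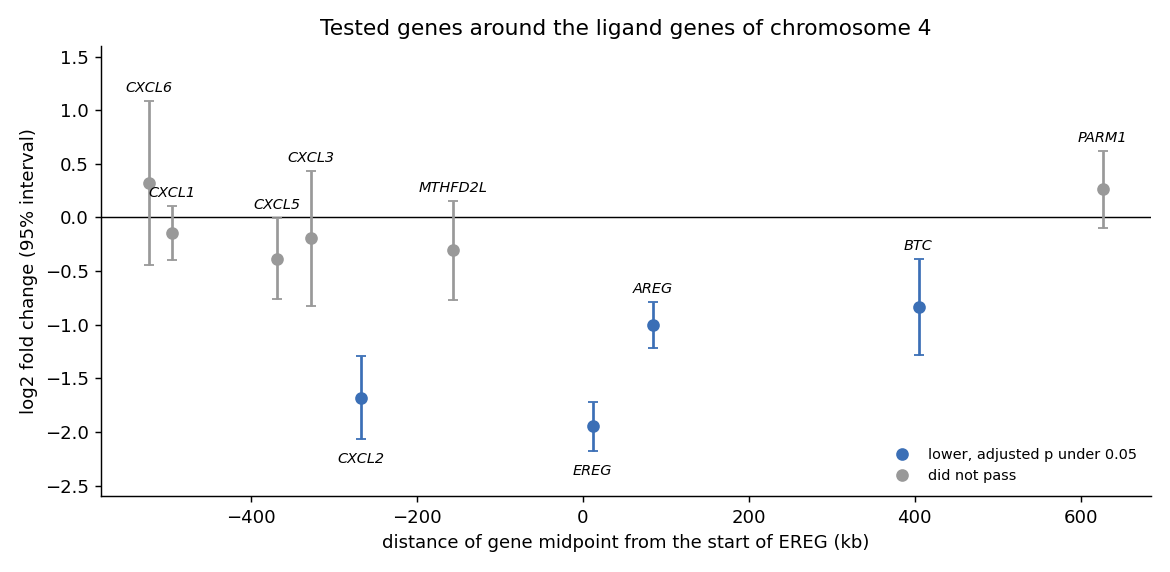
Log2 fold change with its 95% interval (y axis) of the 10 tested genes in the window, by distance of the gene's midpoint from the start of EREG (x axis, kb). Blue marks an adjusted p under 0.05: EREG, AREG, BTC and CXCL2 lie below 0, with genes that did not pass between CXCL2 and EREG and on both outer sides.

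The genes most like a member in their log2 CPM over the 6 libraries, by Pearson's r, were named for the member of each role with the smallest adjusted p. For EREG they were LHX6, SFRP1, UGCG, LMO3 and NCOA7, with r between 0.9988 and 0.9998 and log2 fold changes from -2.53 to -0.99. For ERRFI1 they were ETS2, FHL2, RIN2, CTSB and B4GALT2, with r between 0.9983 and 0.9991 and log2 fold changes from -0.94 to -0.62. For EGFR they were TM6SF1, AHCYL1, CISD1, GNPTAB and RPL4, with r between 0.9927 and 0.9993, and none of these passed the threshold. All of these points share the same 6 libraries, which fall into 2 groups, and DMSO 3 was low for EGFR, so r is given as a description.

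The rest of the pathway was read from 6 lists. Over the 62 tested genes of these lists, 9 (14.5%) were lower and 7 (11.3%) higher, near the 10.7% and 7.23% over all tested genes, and the median log2 fold change was 0.01. On both TPM scales, limma called 4 of these genes, SH3KBP1 and CBLC lower and HGS and EPHA2 higher.

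**Figure D5:**
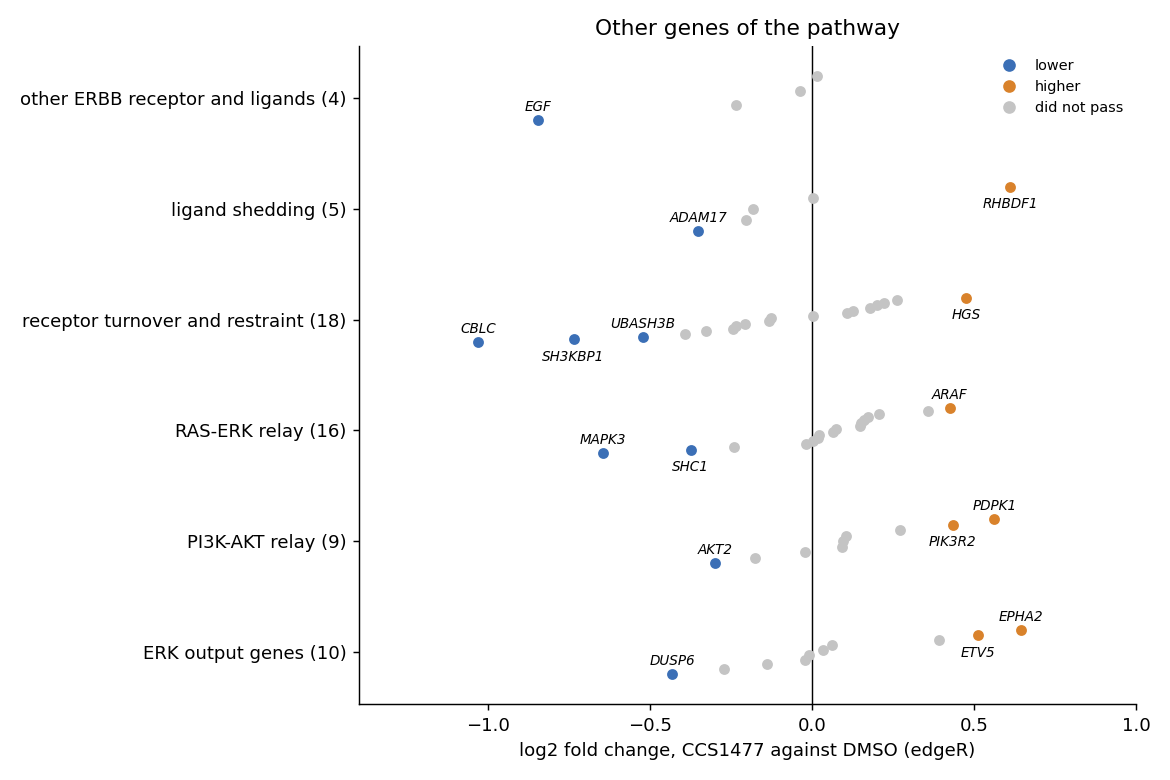
Log2 fold change of CCS1477 against DMSO (x axis) of the tested genes of each list (y axis, number of tested genes in brackets), each point a gene, blue lower and orange higher at an adjusted p under 0.05. Points lie on both sides of 0 in every list, with CBLC furthest to the left at -1.03 and EPHA2 furthest to the right at 0.65.

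Of the other ERBB receptor and ligand genes, 4 of 6 were tested, 1 was lower and 0 higher. EGF, the founding ligand of the family, stood at 5.02, 5.29 and 4.53 CPM in DMSO and 3.25, 2.18 and 2.85 CPM in CCS1477, with a log2 fold change of -0.85 ± 0.27 (SE, edgeR adjusted p = 0.0498). Its call ended without any 1 library, where the log2 fold change ran from -0.97 to -0.70 and the edgeR adjusted p from 0.0572 to 0.184. The neuregulin genes NRG1, NRG2 and NRG4 stood at -0.24, -0.04 and 0.02 and did not pass, and the signs of NRG2 and NRG4 turned under other settings. The receptor ERBB4 was at most at 0.01 TPM in any library, and NRG3 had 0 counts.

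Among genes of ligand shedding, 5 of 7 were tested, 1 was higher and 1 lower. ADAM17, the protease that frees AREG, EREG, TGFA and HBEGF, went from 107.1 ± 7.99 to 83.9 ± 4.74 CPM (SD, n = 3), a log2 fold change of -0.35 (edgeR adjusted p = 0.0226). Its call ended when DMSO 2 (-0.28), CCS1477 2 (-0.36) or CCS1477 3 (-0.31) was left out, and on both TPM scales ADAM17 stood at -0.16. RHBDF1, the iRhom that helps ADAM17 mature, rose from 37.1 ± 2.23 to 56.6 ± 7.45 CPM (SD, n = 3), a log2 fold change of 0.61 (edgeR adjusted p = 0.00459). ADAM10, which frees BTC and EGF, and FRMD8, which steadies the iRhoms, stood at -0.20 and -0.18 and did not pass.

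Receptor turnover and restraint had 18 tested genes, with 3 lower and 1 higher. SH3KBP1 (CIN85), an adaptor in the uptake of ubiquitinated receptors, fell from 180.6 ± 17.5 to 108.4 ± 7.12 CPM (SD, n = 3), a log2 fold change of -0.74 (edgeR adjusted p = 0.000404). The ubiquitin ligase CBLC fell from 13.1 ± 0.904 to 6.40 ± 1.39 CPM (SD, n = 3), a log2 fold change of -1.03 (edgeR adjusted p = 0.0038). Its relatives CBL and CBLB, chosen after their values were seen, stood at 0.11 and 0.20 and did not pass. UBASH3B, a phosphatase that acts on EGFR, fell at -0.52, and HGS, which sorts receptors in endosomes, rose at 0.48. Both calls ended without CCS1477 2 (-0.45 and 0.47) or CCS1477 3 (-0.52 and 0.37).

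In the RAS-ERK relay, 2 of 16 tested genes were lower and 1 higher. MAPK3, the gene of ERK1, fell from 88.7 ± 7.70 to 56.8 ± 5.92 CPM (SD, n = 3), a log2 fold change of -0.65 (edgeR adjusted p = 0.00198). The adaptor SHC1 fell at -0.37 and the kinase ARAF rose at 0.42, and neither passed without CCS1477 2 (-0.39 and 0.43) or CCS1477 3 (-0.37 and 0.38). SOS2, a RAS exchange factor, stood at 0.36 and did not pass (edgeR adjusted p = 0.0513), though it passed in 6 of 17 alternatives, among them DESeq2 (adjusted p = 0.031) and without DMSO 2 (0.46).

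In the PI3K-AKT relay, 2 of 9 tested genes were higher and 1 lower. PDPK1, the kinase that activates AKT, rose at 0.56 (edgeR adjusted p = 0.00125), but stood at 0.14 on both TPM scales. Whether reads of PDPK1 are shared with a near-identical pseudogene was not tested. PIK3R2, a regulatory subunit of PI3K, rose at 0.43 and AKT2 fell at -0.30. The PIK3R2 call ended when DMSO 3 (0.31), CCS1477 2 (0.48) or CCS1477 3 (0.32) was left out, and AKT2 passed without DMSO 2 but not without any 1 other library (-0.33 to -0.23). PIK3R1 stood at 0.27 and did not pass.

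ERK output genes, transcripts known to follow ERK activity, had 2 of 10 higher and 1 lower. The receptor EPHA2 rose from 236.8 ± 14.35 to 370.7 ± 22.5 CPM (SD, n = 3), a log2 fold change of 0.65 (edgeR adjusted p = 0.000453), and the transcription factor ETV5 rose from 96.3 ± 2.14 to 137.2 ± 4.19 CPM (SD, n = 3), a log2 fold change of 0.51 (edgeR adjusted p = 0.00146). DUSP6, the phosphatase that switches ERK off, stood at 43.7, 44.5 and 37.2 CPM in DMSO and 30.7, 28.2 and 34.4 CPM in CCS1477, and its log2 fold change was -0.43 (edgeR adjusted p = 0.0309). DUSP6 did not pass without DMSO 1 (-0.40), DMSO 2 (-0.38), CCS1477 1 (-0.42) or CCS1477 2 (-0.36). SPRY4, another inhibitor of the pathway, stood at 0.39 and did not pass.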

How the data were processed

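Poly-A RNA of DU145 cells was sequenced in 6 libraries, 3 per group, grouped by the sample titles. Files deposited by the authors hold estimated counts per gene without normalization and, separately, TPM, both for 60623 Ensembl IDs. The submitters' processing notes list Trimmomatic 0.39. For the aligner, quantifier, genome build and strandedness, names were not given in the sources used here. For 7 members the 5′ end in the files equals a RefSeq start in GRCh38.p14. Estimated counts, as deposited, were rounded to whole numbers.

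Genes passing filterByExpr (minimum count 10, minimum total 15), 14928 in all, were normalized by TMM and compared without covariates by the quasi-likelihood test of edgeR 4.0.16 in R 4.3.3, adjusted by Benjamini-Hochberg and called at 0.05. Standard errors and 95% intervals come from the test statistic. The procedure was tested on simulated data. Libraries of a group differed by more than sampling noise. Between 2 libraries, chi-square per degree of freedom of the counts ran from 8.03 to 19.1 within DMSO and 3.21 to 6.24 within CCS1477. It ran from 18.3 to 26.9 between the groups, so DMSO 2 against DMSO 3 (19.1) lay within the range between groups. Plots used matplotlib 3.10.9.

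Members, lists and naming rule were chosen with earlier results of these data known. The rule names all members, up to 4 genes per pathway list by adjusted p plus up to 2 called the other way, tested genes near the chromosome 4 ligands, and the 5 genes most correlated with the leading member of each role. Alternatives were other scaling factors, DESeq2 1.42.0, limma 3.58.1 (voom, and log2(TPM + 1) or log2(TPM + 0.1)), other filters and thresholds, a block for the replicate number, a test against a fold of 1.2, and each library left out in turn. Some genes of the lists are not reported here.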

Additional observations from a re-analysis of the deposited data

How the results depend on the processing

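EREG, AREG and ERRFI1 kept direction and call in all 17 alternatives, with log2 fold changes from -2.03 to -1.82, -1.07 to -0.91 and -1.21 to -1.10. Of the members, 6 were lower in the reported test, against 3 on log2(TPM + 1), 3 on log2(TPM + 0.1), 3 at an adjusted p under 0.01, and 3 to 6 when 1 library was left out (3 without CCS1477 2). No member was called higher in any alternative. Over all genes, against 1079 higher and 1597 lower, there were 293 and 427 on log2(TPM + 1), 280 and 410 on log2(TPM + 0.1), 380 and 852 at an adjusted p under 0.01, 369 and 846 against a fold of 1.2, and 487 to 1311 and 925 to 1772 when 1 library was left out. Scaling by library size gave 1456 higher and 1361 lower, 48.3% of calls lower against 59.7%, and 4 members lower. The cause of these differences was not tested.

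Signs turned for HBEGF without DMSO 2 (-0.0084, range without 1 library -0.0084 to 0.20), for NRG2 with library size scaling (0.0103), on the TPM scales (0.24 and 0.28) and without 1 library (-0.13 to 0.16), for NRG4 on the TPM scales (-0.57 and -0.63) and without 1 library (-0.14 to 0.19), and for MTHFD2L on the TPM scales (0.14 and 0.15). None of these was called.

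Replicate numbers are shared between the groups by title only. Deviations of same-numbered samples correlated at -0.09, -0.20 and 0.01, and no sample correlated best with its own number. Deviations from a group's own mean are tied to each other, so these values cannot decide whether the numbers pair samples. With the replicate number as a block, 799 genes were higher and 1306 lower, and 5 members were lower, ERBB3 no longer passing (edgeR adjusted p = 0.0882). EPGN, ERBB4 and NRG3 had too few counts to be tested, and limited depth and absent expression cannot be told apart for them.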
